A study of Mus musculus with 6 samples.

Results

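The genes described here carry a cell through mitosis. They are 46 of the 34199 gene symbols in the count files, listed by name for what their products do, with earlier results of these data known: kinases and cyclins of mitotic entry, the chromosomal passenger complex, the spindle checkpoint, kinetochore proteins, spindle motors, cytokinesis factors, condensin with Top2a and Mki67, and the transcription factors Foxm1 and Mybl2. All 46 were found in the files and all passed the filter on low counts that left 12460 genes for testing. Their transcripts were followed by bulk RNA-seq in HOXA9-immortalized granulocyte-macrophage progenitors (iGMPs, the Lys-GFP-ER-HoxA9 cells) of C57Bl/6 mouse bone marrow. Every group carries the same 2 transgenes, a lysozyme promoter driving GFP and an HOXA9 fusion to a mutant estrogen receptor ligand-binding domain (G400V), and was grown in stem cell factor. Each group had 2 libraries, harvested 24 h after the switch.

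In CAF-1 OFF, 500 µM IPTG induced a short hairpin RNA against Chaf1b, a subunit gene of the histone chaperone CAF-1, in medium with 150 ng/ml estradiol. Control cells were also given IPTG (the label states no dose of their own), and the control vector of the study carried a spacer sequence in place of the hairpin. In HOXA9 OFF, estradiol was washed out, which inactivates the fusion protein and lets the cells differentiate; the labels do not say whether these cells received IPTG or carried a hairpin, so estradiol and those factors cannot be told apart. The hairpin lines were clones, and the labels do not say which clones were used or whether the 2 libraries of a group came from separate cultures. The p-values below therefore measure the spread between these libraries, which may be technical.

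Mitosis is driven by cyclin-dependent kinase 1 with its cyclins, which condense the chromosomes and build the spindle, while the checkpoint delays separation until every kinetochore is attached and the anaphase-promoting complex (APC/C) then destroys cyclin B and securin. Transcription of most of these genes peaks in G2 and mitosis. In resting cells the DREAM complex holds them down through a promoter element called the CHR (cell cycle genes homology region), and in cycling cells the MuvB core of that complex joins B-MYB (Mybl2) and FOXM1 to switch them on, usually beside CCAAT boxes bound by NF-Y. Granulocyte-macrophage progenitors divide rapidly and stop dividing late in neutrophil maturation, so the level of these transcripts in a culture usually follows how many of its cells are cycling. In bulk samples, fewer cells that express a gene and less RNA per cell cannot be told apart.

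To show what these promoters share, 5 of them are printed here: a kinase, an APC/C activator, a cyclin, and the genes with the largest positive and largest negative difference in HOXA9 OFF against control. Each line gives the 120 bases before the gene start, 5′ to 3′ on the strand of the gene, from RefSeq (GRCm38.p6, a later build than the mm9 of the counts). Capitals mark the CHR hexamer TTTGAA or its complement TTCAAA and the NF-Y element CCAAT or its complement ATTGG. The windows are chr10:69352913-69353032, minus strand for Cdk1, chr4:118437344-118437463, minus strand for Cdc20, chr13:100786487-100786606, minus strand for Ccnb1, chr7:135716380-135716499, minus strand for Mki67 and chr2:163054515-163054634, plus strand for Mybl2.
Cdk1: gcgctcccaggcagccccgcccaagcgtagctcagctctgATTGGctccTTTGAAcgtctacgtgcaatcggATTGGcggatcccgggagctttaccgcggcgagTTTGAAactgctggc
Cdc20: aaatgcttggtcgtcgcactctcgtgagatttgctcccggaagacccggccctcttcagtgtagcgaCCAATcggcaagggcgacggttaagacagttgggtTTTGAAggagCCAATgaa
Ccnb1: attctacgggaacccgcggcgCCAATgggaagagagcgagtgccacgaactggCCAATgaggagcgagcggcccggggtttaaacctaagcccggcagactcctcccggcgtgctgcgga
Mki67: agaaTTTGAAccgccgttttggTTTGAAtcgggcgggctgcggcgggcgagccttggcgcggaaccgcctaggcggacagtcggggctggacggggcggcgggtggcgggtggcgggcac
Mybl2: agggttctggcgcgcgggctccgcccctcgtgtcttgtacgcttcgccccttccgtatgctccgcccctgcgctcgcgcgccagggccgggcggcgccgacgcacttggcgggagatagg

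The stretches of Cdk1 and Cdc20 hold both elements, with a hexamer close to the start. That of Ccnb1 holds CCAAT boxes and no TTTGAA, that of Mki67 holds the hexamer further upstream, and neither TTTGAA nor CCAAT is in the Mybl2 window. No other letters were searched for as a CHR, so a window without TTTGAA is not shown to lack that element. RefSeq windows from 250 bases before to 50 after the start were matched for 39 of the 46 genes; those of Smc4, Spc24, Aurkb, Tpx2, Ccna2, Foxm1 and Kif20a were not. On either strand, TTTGAA stood in a window of 28 of the 39 genes (71.8%), against 20.2% of 27025 genes. Within 50 bases of the start on either side, 25 held it (64.1%, against 5.72% of all). CCAAT stood in 27 of 39 (69.2%, against 41.1%), and an E2F-like motif, TTTNNCGC, in 5 (12.8%, against 5.93%). Matches to the 3 motifs were counted separately even where they shared bases. A match is a description of letters and shows no binding.

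**Figure D1:**
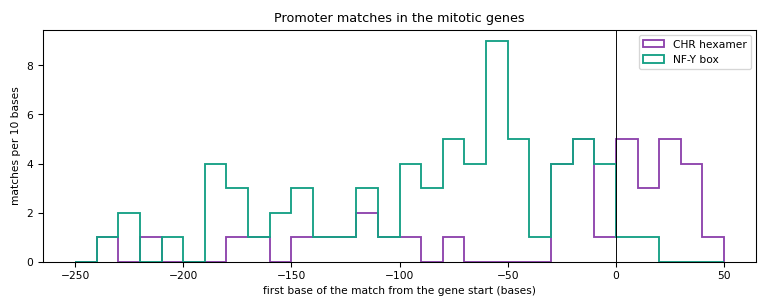
Positions of matches to the CHR hexamer (purple) and the NF-Y box (green) in the promoter windows of the 39 matched genes. The y axis gives matches per 10 bases, the x axis the distance of the match from the gene start in bases (0 is the start). Ect2 and Prc1 have overlapping windows, and a match that lies in both is counted in each. The hexamer lies mostly within 50 bases of the start and the NF-Y box mostly upstream of it.

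The fold changes of genes with and without the hexamer overlapped. The median log2 fold change of CAF-1 OFF against control was 0.09 for the 28 with it (range -0.12 to 0.36) and 0.19 for the 11 without it (-0.23 to 0.32). In HOXA9 OFF against control the medians were -0.02 (-0.26 to 0.74) and 0.01 (-0.54 to 0.30).

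Library depth was 16773560 to 25170898 gene counts, and the lowest count of any of the 46 genes in any library was 505. Chaf1b stood at 17.8 and 12.1 CPM (counts scaled to a common library size, with TMM factors) in the CAF-1 OFF libraries and at 90.0 and 105 in control. In HOXA9 OFF, whose label names no Chaf1b suppression, it stood at 64.6 and 61.4, called lower than control (-0.63, edgeR FDR 0.0396). Of 8 markers of the progenitor, all were detected, with summed levels of 16160 to 17720 CPM in CAF-1 OFF, 12170 to 15260 in control and 11950 to 14950 in HOXA9 OFF. The HOXA9 OFF sum covers a split list, with 5 of the 8 called lower than control (median -0.68) and Mpo, Elane and Prtn3 at positive estimates that did not pass. Of 9 tested markers of maturing neutrophils or monocytes, 9 rose in HOXA9 OFF against control, where 22% of all genes tested were called. Their list summed to 999 and 1346 CPM there, 26.0 and 37.3 in control and 59.2 and 67.6 in CAF-1 OFF. Erythroid markers summed to at most 4.88 CPM in any library. Summed megakaryocyte markers reached 24.5 and 27.4 CPM for control, 75.3 and 36.0 for CAF-1 OFF and 65.3 and 78.6 for HOXA9 OFF, so both treated groups lay above control. In CAF-1 OFF against control all 4 tested megakaryocyte markers had positive estimates (median 1.52) and 0 were called, against 0.0321% of all genes. In HOXA9 OFF 3 were positive and 1 of the 4, Itga2b, was called higher (25%, against 22% of all). The list was split there, as 1 marker had an estimate of -2.1, with both libraries below both controls, and was not called. Lymphoid sums were 14.0 and 19.04 CPM for control, 31.8 and 23.1 for CAF-1 OFF and 18.2 and 15.9 for HOXA9 OFF. The 5 tested lymphoid markers were split in HOXA9 OFF against control, from -5.3 to 1.7 (median 0.30). Of these, 3 had positive estimates with 0 called higher, and 2 were called lower (40%, against 22% of all genes). Among the 2 was Lck, at 0.338 and 0.667 CPM in HOXA9 OFF and 1.77 and 4.70 in control. Mast cell and basophil sums were 289 and 243 CPM for control, 691 and 305 for CAF-1 OFF and 328 and 391 for HOXA9 OFF. In the megakaryocyte and the lymphoid list, 1 marker each was at 0 counts in every library. The part of these cell types in the values below was not tested.

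The 46 genes together took between 0.705% and 0.859% of the gene counts of a library. Their CPM summed to 7682 and 8390 for CAF-1 OFF, 7759 and 7170 for control, and 8017 and 7241 for HOXA9 OFF. The groups overlapped. For the typical gene the highest library stood 1.28 times above the lowest (median over the 46), and for 41 genes this ratio was under 1.5. The other 5 were Mki67 (2.11), Cenpf (1.85), Mybl2 (1.78), Cenpe (1.56) and Cdk1 (1.51).

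Per kilobase of exon (union of exons in GENCODE vM1), the highest mean level over the 6 libraries was that of the B-type cyclin Ccnb2, at 120.3 CPM per kb. Smc4 followed at 105 and Top2a at 98.1. The library ranges of these neighbours overlapped, 109.5 to 131 for Ccnb2, 92.0 to 121 for Smc4 and 87.1 to 122 for Top2a. At the low end stood Kif4 (13.3 CPM per kb), Cenpf (9.04) and the kinesin Kif18a (3.44). Kif18a ranged from 3.07 to 3.94 and Cenpf from 6.63 to 12.3, without overlap, while Kif4, at 12.2 to 14.5, overlapped Cenpf.

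The first comparison asked whether 24 h of CAF-1 loss altered the mitotic program of the progenitors. In CAF-1 OFF against control, 0 of the 46 passed (a call needs at least a 1.5-fold change and an FDR under 0.05 in the edgeR quasi-likelihood test), and 0.0321% of all genes tested did. The differences ran from -0.23 for Kif18a to 0.36 for Cenpf on the log2 scale, with a median of 0.09 against -0.0044 over all genes tested. Of the 46, 36 (78.3%) lay above 0, against 49.2% of all genes. Both CAF-1 OFF libraries lay above both controls for 19 genes (41.3%, against 20.1% of all) and below both for 3 (6.52%, against 20%).

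At an unadjusted p under 0.05 there were 2, Nuf2 and Ndc80, 4.35% of the 46 against 10.7% of all genes. The DESeq2 Wald test and the edgeR exact test also called 0 of the 46, against 1.54% and 1.89% of all genes. The 95% interval of the difference lay inside a 1.5-fold change in both directions for 42 of the 46 genes (91.3%, against 49.3% of all genes). The exceptions were Birc5 (-0.03 to 0.67), Cenpe (-0.20 to 0.70), Cenpf (-0.23 to 0.94) and Mki67 (-0.45 to 0.75). Interval width depends on count level. Here and in the comparisons below, the share over all genes was not matched to the 46 for level. Without CAF-1 OFF library 2, 29 of the 46 lay above 0, and without control library 2 also 29. The median then was 0.09 and 0.06. Without control library 1 it was 0.17, with 36 above 0.

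The second comparison asked how the same genes stood 24 h after HOXA9 was inactivated, when the neutrophil and monocyte markers had risen. In HOXA9 OFF against control, 0 of the 46 were called, although 22% of all genes tested were. The median log2 fold change was -0.01, with 21 above 0 (45.7%, against 49.8% of all) and 25 below. Leaving out HOXA9 OFF library 1 moved the median to -0.09 with 14 above 0, and leaving out HOXA9 OFF library 2 moved it to 0.05 with 32 above 0. Both HOXA9 OFF libraries lay above both controls for 8 genes (17.4%, against 35.1% of all) and below both for 9 (19.6%, against 35.9%). An unadjusted p under 0.05 was reached by Mki67, which was higher, and by Mybl2, Kif18a, Mad2l1 and Ncapg, which were lower. These 5 are 10.9% of the 46, against 41.9% of all genes.

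For 40 of the 46 genes (87%, against 28.1% of all, not matched for count level) the 95% interval lay inside a 1.5-fold change. Outside it reached Cenpe (-0.27 to 0.64), Cenpf (-0.33 to 0.84), Kif18a (-0.62 to -0.05), Nusap1 (-0.01 to 0.61), Mki67 (0.14 to 1.34) and Mybl2 (-0.78 to -0.29). With no fold minimum, 1 of the 46, Mybl2, passed an FDR of 0.05 in the quasi-likelihood test (2.17%, against 29.8% of all genes). With a length trend removed from each library, a step chosen after the data were seen, Mki67, Kif18a and Ncapg also passed that FDR. The trend used the union of all annotated exons, which can exceed the transcript, and what this did to these values was not tested. The DESeq2 Wald test (22.7% of all genes called) and the edgeR exact test (23.9%) each called 1 of the 46, Mki67. Both comparisons with control share the control libraries, so their values are not independent.

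**Figure D2:**
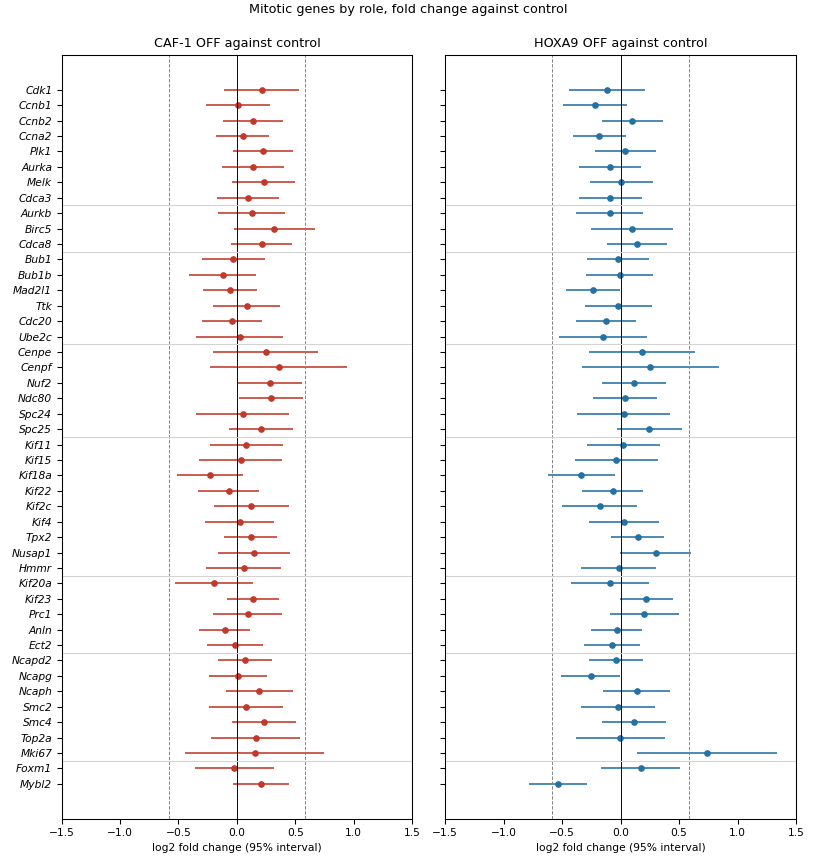
Log2 fold change (x axis) of each of the 46 genes (y axis, grouped by role between grey lines) in CAF-1 OFF against control (left, red) and HOXA9 OFF against control (right, blue); points are edgeR estimates, bars 95% intervals and dashed lines a 1.5-fold change. In both panels most intervals span 0 and stay between the dashed lines, with Mki67 (0.74) and Mybl2 (-0.54) farthest from 0 on the right.

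Set against each other directly, CAF-1 OFF and HOXA9 OFF differed in 1 of the 46 genes, Mybl2, where 22.1% of all genes were called. With no fold minimum the count was also 1, against 30.3% of all genes. The DESeq2 Wald test (22.9% of all genes) and the edgeR exact test (24.2%) called Mybl2 as well and no other of the 46. The median log2 fold change was 0.09, and 33 genes were higher in CAF-1 OFF (71.7%, against 50.1% of all). Without HOXA9 OFF library 2 the median was 0.03 with 26 higher, and without HOXA9 OFF library 1 it was 0.18 with 40 higher. CAF-1 OFF lay above HOXA9 OFF in both libraries for 16 (34.8%, against 33% of all) and below for 3 (6.52%, against 33.7%). At an unadjusted p under 0.05 stood Mybl2, Cdk1, Ccna2 and Ncapg (8.7%, against 42.3%), and the interval lay inside 1.5-fold for 41 (89.1%, against 28.6%).

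Among the 8 genes of mitotic entry, 0 were called in any of the 3 comparisons, while of all genes 0.0321% were called for CAF-1 OFF and 22% for HOXA9 OFF against control, and 22.1% between them. All 8 estimates were positive in CAF-1 OFF against control (median 0.14), as were 49.2% of all genes. Cdk1, the kinase that starts mitosis, stood at 284 and 241 CPM for CAF-1 OFF, 229 and 225 for control and 231 and 188 for HOXA9 OFF. Both CAF-1 OFF libraries lay above the other 4, by 0.21 ± 0.14 on the log2 scale over control (edgeR FDR 0.633) and 0.33 ± 0.14 over HOXA9 OFF (FDR 0.113). Ccna2, the A-type cyclin of S phase and G2, stood at 302 and 287 CPM for CAF-1 OFF, 287 and 282 for control and 260.0 and 242 for HOXA9 OFF. Its HOXA9 OFF libraries were the lowest, -0.18 ± 0.10 from control (FDR 0.195). Ccnb1, the B-type cyclin that Cdk1 needs in mitosis, gave 99.0 and 86.1 CPM for CAF-1 OFF, 89.0 and 94.9 for control and 82.0 and 76.2 for HOXA9 OFF. CAF-1 OFF and control overlapped there, while HOXA9 OFF lay below both, at -0.22 ± 0.11 (FDR 0.198). For Plk1, the polo kinase of centrosome maturation, the levels were 164 and 154 CPM for CAF-1 OFF, 137 and 135 for control and 149.8 and 129 for HOXA9 OFF, and CAF-1 OFF lay above control, at 0.22 ± 0.11 (FDR 0.529). Differences from control of Ccnb2, Aurka, Melk and Cdca3 lay between 0.09 and 0.23 in CAF-1 OFF and between -0.09 and 0.10 in HOXA9 OFF.

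**Figure D3:**
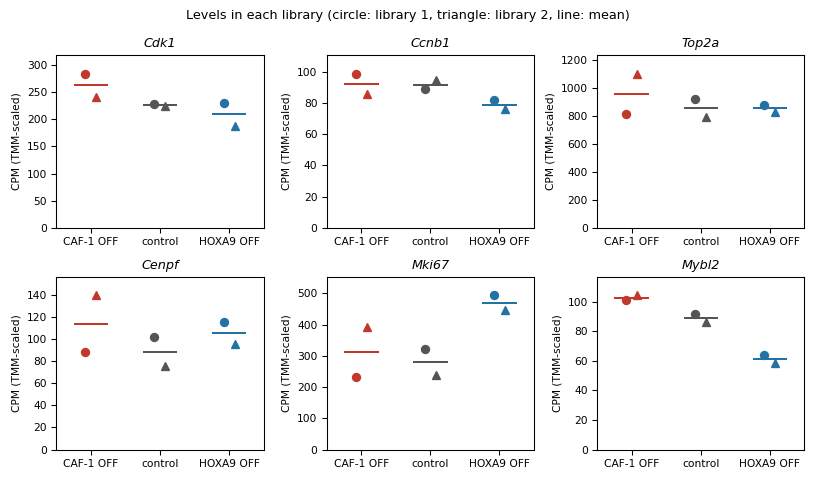
Level in CPM (TMM-scaled, y axis from 0) of 6 genes in the 2 libraries of each group (circle: library 1, triangle: library 2, line: group mean). Libraries of different groups overlap for Top2a and Cenpf, Mki67 lies highest in HOXA9 OFF (446 to 494), and Mybl2 lies lowest there (58.8 to 63.9).

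The chromosomal passenger complex corrects faulty kinetochore attachments and later guides cytokinesis. All 3 of its measured genes were higher in both CAF-1 OFF libraries than in both controls, as were 20.1% of all genes, and 0 were called, against 0.0321% of all. Its kinase gene Aurkb stood at 181 and 172 CPM for CAF-1 OFF, 165 and 159 for control and 167 and 137 for HOXA9 OFF. Birc5 (survivin, which brings the complex to centromeres) stood at 149.9 and 126 CPM for CAF-1 OFF, 105 and 116 for control and 131 and 105 for HOXA9 OFF. This was 0.32 ± 0.15 in CAF-1 OFF against control (edgeR FDR 0.5) and 0.10 ± 0.15 in HOXA9 OFF (FDR 0.662). Cdca8 (borealin) stood at 152 and 141 CPM for CAF-1 OFF, 124 and 128 for control and 149 and 130.0 for HOXA9 OFF, so that both treated groups lay above control, by 0.21 ± 0.11 and 0.14 ± 0.11.

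The 6 spindle checkpoint and APC/C genes had a median of -0.04 and a range of -0.12 to 0.08 in CAF-1 OFF. In HOXA9 OFF all 6 estimates were negative, from -0.24 to -0.01, as were 50.2% of all genes, and 0 were called, against 22% of all. Mad2l1, the checkpoint protein that captures Cdc20, stood at 161 and 160.1 CPM for CAF-1 OFF, 168 and 166 for control and 149 and 135 for HOXA9 OFF. Its HOXA9 OFF libraries lay below the other 4, at -0.24 ± 0.10 (unadjusted edgeR p 0.046, FDR 0.112). Cdc20, the activator that starts anaphase, stood at 177 and 159 CPM for CAF-1 OFF, 178 and 169 for control and 167 and 150.2 for HOXA9 OFF, with HOXA9 OFF below control by both libraries (-0.13 ± 0.11, FDR 0.413). Ube2c, the ubiquitin-conjugating enzyme of the APC/C, gave 195 and 149 CPM for CAF-1 OFF, 168 and 169 for control and 167 and 137 for HOXA9 OFF, and its CAF-1 OFF libraries lay on either side of control. Bub1b (BUBR1) stood at 165 and 176 CPM for CAF-1 OFF, 199 and 172 for control and 197 and 172 for HOXA9 OFF, and all groups overlapped. Bub1 and the kinase Ttk, which load and start the checkpoint, differed from control by -0.03 and 0.08 in CAF-1 OFF and by -0.02 each in HOXA9 OFF.

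At the kinetochore, which ties chromosomes to spindle microtubules, all 6 estimates were positive in both comparisons with control, with medians of 0.27 for CAF-1 OFF and 0.15 for HOXA9 OFF. Of all genes, 49.2% and 49.8% were positive. In these comparisons 0 of the 6 were called, against 0.0321% and 22% of all. Nuf2 and Ndc80, partners in the Ndc80 complex that grips microtubules, had the smallest p-values of the 46 in CAF-1 OFF. Nuf2 stood at 129 and 140.1 CPM for CAF-1 OFF, 117 and 104 for control and 127 and 113 for HOXA9 OFF, with 0.28 ± 0.12 in CAF-1 OFF against control (p 0.0458, edgeR FDR 0.453). Ndc80 stood at 75.3 and 74.3 CPM for CAF-1 OFF, 60.9 and 61.1 for control and 67.5 and 57.4 for HOXA9 OFF, with 0.29 ± 0.12 (p 0.038, edgeR FDR 0.438). Both CAF-1 OFF libraries lay above the other 4 for both genes. The other members of that complex were not alike in this, as Spc25 stood at 68.8 and 66.7 CPM for CAF-1 OFF, 61.5 and 56.0 for control and 74.3 and 64.9 for HOXA9 OFF, highest in HOXA9 OFF library 1, and Spc24 differed from control by 0.05 and 0.03.

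Cenpe, the kinesin that carries chromosomes to the spindle equator, stood at 91.5 and 133 CPM for CAF-1 OFF, 104 and 85.2 for control and 110.0 and 105 for HOXA9 OFF. Cenpf, a large kinetochore and nuclear matrix protein, stood at 87.9 and 139.6 CPM for CAF-1 OFF, 102 and 75.3 for control and 116 and 95.6 for HOXA9 OFF. For both genes CAF-1 OFF library 2 was the highest of the 6 and the other CAF-1 OFF library lay between the controls. The differences from control were 0.25 ± 0.19 and 0.36 ± 0.25. Without CAF-1 OFF library 2 the Cenpe estimate was -0.03.

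The 9 spindle genes had medians of 0.06 for CAF-1 OFF and -0.01 for HOXA9 OFF against control, with 0 called in either, against 0.0321% and 22% of all genes. Kif11, the motor that pushes spindle poles apart, stood at 326 and 371 CPM for CAF-1 OFF, 356 and 304 for control and 359.9 and 310.3 for HOXA9 OFF, and all groups overlapped. Tpx2, which activates Aurora A on the spindle, stood at 232 and 227 CPM for CAF-1 OFF, 217 and 206 for control and 241 and 227 for HOXA9 OFF. Both treated groups lay above control, by 0.12 ± 0.09 and 0.14 ± 0.09. Nusap1, a microtubule bundler, stood at 92.0 and 96.5 CPM for CAF-1 OFF, 89.8 and 80.7 for control and 115 and 94.4 for HOXA9 OFF, with 0.30 ± 0.13 in HOXA9 OFF against control (edgeR FDR 0.128). Kif18a, the motor that damps chromosome oscillations, was the lowest of the 46 per length and gave 30.6 and 34.7 CPM for CAF-1 OFF, 38.0 and 38.7 for control and 30.1 and 30.6 for HOXA9 OFF. Both treated groups lay below control, at -0.23 ± 0.12 (FDR 0.551) and -0.34 ± 0.12 (FDR 0.0765). Kif15, Kif22, Kif2c, Kif4 and Hmmr differed from control by -0.07 to 0.12 in CAF-1 OFF and by -0.18 to 0.03 in HOXA9 OFF.

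Of the 5 cytokinesis genes, 0 were called in either comparison with control, against 0.0321% and 22% of all genes. Kif23, a motor of the centralspindlin complex, stood at 86.2 and 85.8 CPM for CAF-1 OFF, 79.8 and 76.5 for control and 92.2 and 89.9 for HOXA9 OFF, and Prc1, which bundles the midzone microtubules, at 123 and 139.9 CPM for CAF-1 OFF, 133 and 114 for control and 148 and 137 for HOXA9 OFF. In both, the HOXA9 OFF libraries lay above control, by 0.22 ± 0.10 and 0.20 ± 0.12 (edgeR FDR 0.127 and 0.253). Ect2, the exchange factor that activates RhoA at the cleavage furrow, stood at 129 and 138 CPM for CAF-1 OFF, 140.4 and 129 for control and 131 and 125 for HOXA9 OFF, with all groups within 125 to 140.4 CPM. Anln (anillin) and Kif20a differed from control by -0.11 and -0.20 in CAF-1 OFF and by -0.03 and -0.09 in HOXA9 OFF.

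Of the 7 genes of condensin, topoisomerase and the chromosome surface, Top2a (the enzyme that untangles sister DNA) and Smc4 (an ATPase subunit of condensin) were the most abundant of the 46 in CPM. Top2a stood at 814 and 1104 CPM for CAF-1 OFF, 923 and 790.3 for control and 880.3 and 829 for HOXA9 OFF. Its CAF-1 OFF libraries were the second lowest and the highest of the 6, and without library 2 the estimate against control was -0.06. Smc4 stood at 537 and 609 CPM for CAF-1 OFF, 511 and 463 for control and 555 and 498 for HOXA9 OFF, with 0.23 ± 0.12 in CAF-1 OFF against control (edgeR FDR 0.53). Ncapg, a condensin I subunit, stood at 97.8 and 110.0 CPM for CAF-1 OFF, 101 and 106 for control and 85.2 and 87.4 for HOXA9 OFF. HOXA9 OFF lay below the other 4 libraries, by -0.26 ± 0.10 from control (FDR 0.113), while the condensin subunits Ncapd2, Ncaph and Smc2 differed by -0.04, 0.14 and -0.02.

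Mki67, which encodes the Ki-67 protein that coats mitotic chromosomes and serves as the usual marker of cycling cells, stood at 234 and 391 CPM for CAF-1 OFF, 323 and 239 for control and 494 and 446 for HOXA9 OFF. Both HOXA9 OFF libraries were above the other 4. The difference from control was 0.74 ± 0.25 on the log2 scale (95% interval 0.14 to 1.34, p 0.0224, edgeR FDR 0.0673) and did not pass. It passed with the DESeq2 Wald test (adjusted p 0.013), the edgeR exact test (FDR 0.0202) and a fit to the 4 libraries compared (edgeR FDR 0.0176). With 1 library left out at a time it ran from 0.54 to 0.97 and did not pass (edgeR FDR 0.0745 to 0.275). CAF-1 OFF against HOXA9 OFF gave -0.59 ± 0.25 (edgeR FDR 0.122), -0.27 without CAF-1 OFF library 1 (edgeR FDR 0.374) and -0.99 without CAF-1 OFF library 2 (edgeR FDR 0.0199). For CAF-1 OFF against control the value was 0.15 ± 0.25 (edgeR FDR 0.876), with 0.47 without CAF-1 OFF library 1 and -0.25 without library 2.

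The level of Mki67 varied between the 2 libraries of CAF-1 OFF and of control in step with Cenpf, another long transcript. The ratio of Mki67 to Cenpf counts within a library was 2.66 and 2.80 for CAF-1 OFF, 3.17 and 3.17 for control and 4.26 and 4.67 for HOXA9 OFF. Against Top2a it was 0.287 and 0.354, then 0.350 and 0.302, then 0.561 and 0.538. These ratios were chosen after the values were seen, and they carry no test.

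The 2 transcription factors that switch on the program gave different values. Foxm1, the forkhead factor of the mitotic genes, stood at 81.4 and 96.7 CPM for CAF-1 OFF, 98.9 and 82.0 for control and 108 and 96.3 for HOXA9 OFF, with all groups overlapping and 0.17 ± 0.14 in HOXA9 OFF against control (edgeR FDR 0.4). Mybl2 (B-MYB), its partner on MuvB, stood at 101 and 104 CPM for CAF-1 OFF, 91.9 and 86.2 for control and 63.9 and 58.8 for HOXA9 OFF. The 3 groups did not overlap. HOXA9 OFF was lower than control by a log2 difference of -0.54 ± 0.10 (edgeR FDR 0.0102), which passed the FDR and fell short of the 1.5-fold minimum. The FDR no longer passed without control library 1 (edgeR FDR 0.0631) or without HOXA9 OFF library 2 (edgeR FDR 0.0835). CAF-1 OFF was 0.21 ± 0.10 from control (edgeR FDR 0.534), and against HOXA9 OFF Mybl2 was called, at 0.74 ± 0.10 (edgeR FDR 0.0035). The ratio of Mybl2 to Foxm1 counts was 1.24 and 1.08 for CAF-1 OFF, 0.929 and 1.05 for control and 0.593 and 0.610 for HOXA9 OFF. On the mm9 assembly Mybl2 lies on chromosome 2 (162880423 to 162910424, plus strand) and Mki67 on chromosome 7 (142881471 to 142908062, minus strand), and no exon of another gene overlaps either.

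Libraries of 1 group differed from each other in a way that went with exon length. This length is the union of all annotated exons of a gene and can exceed that of its transcript. Over the 46 genes, the log2 difference of library 2 from library 1 correlated with exon length at Pearson's r 0.748 (Spearman's rho 0.745) in CAF-1 OFF, -0.49 (-0.44) in control and 0.41 (0.406) in HOXA9 OFF. The points share the same 2 libraries in each group, and the relation was examined after the data were seen. The 7 genes over 7000 bases (Cenpe, Cenpf, Kif18a, Prc1, Ncapg, Top2a and Mki67) had a median difference of 0.44 in CAF-1 OFF, -0.22 in control and -0.09 in HOXA9 OFF. The 7 under 2500 bases had -0.13, -0.03 and -0.16. Over the 12390 genes tested with a length, r was 0.276, -0.103 and 0.049. With a length trend removed from each library, Mki67 in HOXA9 OFF against control stood at 0.59 and was called (edgeR FDR 0.0327). In the same fit Kif18a (-0.49, edgeR FDR 0.0167) and Ncapg (-0.35, edgeR FDR 0.0228) passed the FDR in HOXA9 OFF against control without reaching 1.5-fold, as did Ncapg in CAF-1 OFF against HOXA9 OFF (0.35, edgeR FDR 0.0244). Cenpf in CAF-1 OFF against control stood at 0.30 (FDR 0.485).

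**Figure D4:**
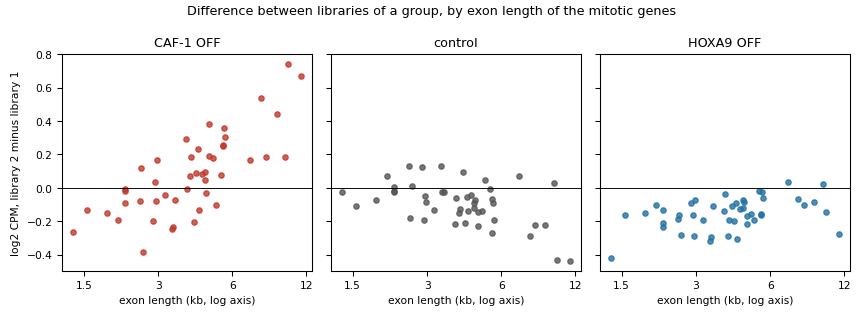
Difference between the 2 libraries of a group (log2 CPM, library 2 minus library 1, y axis) against exon length (kb, logarithmic x axis) for the 46 genes in each group. In CAF-1 OFF the 7 genes over 7000 bases lie above 0 and the 7 under 2500 bases below it (r 0.748 over all 46), and in control most of the longest lie below it.

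The exons of 11 of the 46 genes overlap those of another gene in GENCODE vM1, among them Cdc20 with Elovl1, Ube2c with Tnnc2, Ccna2 with Exosc9, Kif18a with Mettl15 and Ncapg with Lcorl, all on the opposite strand, and Foxm1 with 4933413G19Rik on its own strand. The strand setting of the counting was not stated, so the values of these genes are uncertain to that extent.

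Other genes of the same processes were counted as lists. Of 70 tested further mitotic genes, CAF-1 OFF against control gave 0 calls (edgeR, against 0.0321% of all genes; 7 at an unadjusted p under 0.05, against 10.7% of all) and HOXA9 OFF against control gave 1 (1.43% of the list, against 22% of all genes), with medians of 0.08 and 0.01. The called gene was Cenpn, which reads the centromeric nucleosome, at 46.7 and 48.6 CPM for CAF-1 OFF, 46.3 and 47.2 for control and 26.3 and 33.0 for HOXA9 OFF (-0.66 ± 0.14, edgeR FDR 0.0137). Its call was lost without either control library or without HOXA9 OFF library 1. Between CAF-1 OFF and HOXA9 OFF, 3 were called, Cenpn (0.68 ± 0.14), Fam64a (0.67 ± 0.12) and Gtse1 (0.83 ± 0.13), each higher in CAF-1 OFF (4.29% of the list, against 22.1% of all genes). The count was 6 without CAF-1 OFF library 2 and with library size alone. The Cenpn call was lost without HOXA9 OFF library 1 and the Fam64a call without HOXA9 OFF library 2. The DESeq2 Wald test and the exact test also gave 0 calls in CAF-1 OFF against control for these genes and for the APC/C, cohesin, DREAM and replication lists.

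Among 16 APC/C subunits and regulators and 10 cohesin genes, 0 were called in each comparison with control by edgeR, the DESeq2 Wald test or the exact test, while edgeR called 0.0321% of all genes for CAF-1 OFF and 22% for HOXA9 OFF. At an unadjusted p under 0.05 stood 0 and 1 in CAF-1 OFF (10.7% of all genes), and 3 and 0 in HOXA9 OFF (41.9% of all). The medians in HOXA9 OFF were -0.13 for the APC/C, with 12 of 16 negative (75%, against 50.2% of all genes), and 0.12 for cohesin, with 9 of 10 positive (90%, against 49.8%). Of 11 genes of DREAM and MuvB, 0 were called in CAF-1 OFF (against 0.0321% of all genes, with 1 at an unadjusted p under 0.05, against 10.7%) and 2 in HOXA9 OFF, 18.2% of the list against 22% of all genes. E2f5, an E2F that represses together with pocket proteins, fell from 8.29 and 7.66 CPM in control to 3.18 and 4.06 (-1.14 ± 0.23, edgeR FDR 0.0117). Rbl2, the pocket protein p130 of DREAM, rose from 44.9 and 41.5 to 68.5 and 66.1 CPM (0.64 ± 0.13, edgeR FDR 0.0125). Without control library 1 only Rbl2 was called, without control library 2 only E2f5, and without HOXA9 OFF library 1 neither was. Under library size alone, and with a length trend removed, E2f5 was called and Rbl2 was not.

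Of the 33 replication fork genes, which act in the S phase before, 28 had estimates below 0 in HOXA9 OFF against control (84.8%, against 50.2% of all genes tested), with a median of -0.28 against -0.0035 over all genes. Both libraries lay below both controls for 25 (75.8%, against 35.9% of all). The 3 that were called are 9.09% of the list, against 22% of all genes. They were Gins2 (-0.72 ± 0.14, edgeR FDR 0.0101), Orc1 (-0.64 ± 0.15, FDR 0.0182) and Tyms (-0.61 ± 0.10, FDR 0.00675). These 3 fell; Gins2 stood at 91.1 and 79.8 CPM for CAF-1 OFF, 84.6 and 97.5 for control and 59.8 and 50.9 for HOXA9 OFF. None of these 3 calls held in every fit that left out 1 control or HOXA9 OFF library. The count was 6 with library size alone. CAF-1 OFF against control gave 0 calls (edgeR, against 0.0321% of all genes), 2 at an unadjusted p under 0.05 (against 10.7%) and a median of -0.01. Between CAF-1 OFF and HOXA9 OFF, 3 were called, all higher in CAF-1 OFF: Cdc6 (0.61 ± 0.10), Gins2 (0.63 ± 0.14) and Rrm2 (0.67 ± 0.10). They are 9.09% of the list, against 22.1% of all genes. The count was 5 without CAF-1 OFF library 2 and 6 with library size alone, and the Gins2 call was lost without CAF-1 OFF library 1 and without HOXA9 OFF library 2.

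Of 6 tested inhibitors of cyclin-dependent kinases, 2 were called in HOXA9 OFF against control (33.3%, against 22% of all genes). Cdkn1a (p21) fell, with 42.3 and 34.9 CPM for CAF-1 OFF, 25.9 and 40.2 for control and 15.6 and 21.3 for HOXA9 OFF (-0.84 ± 0.26, edgeR FDR 0.0472). Cdkn2d (p19) rose from 1.10 and 0.70 CPM to 2.70 and 2.30 CPM (1.46 ± 0.39, edgeR FDR 0.0324). Both calls were lost without control library 2 or without either HOXA9 OFF library, and the Cdkn2d call also without control library 1 and with a filter at a mean of 5 CPM. The Cdkn1a call was lost with the replicate block and in the fit to the 4 libraries compared. For CAF-1 OFF, 0 were called against control by the quasi-likelihood test (against 0.0321% of all genes), with 2 at an unadjusted p under 0.05 (against 10.7%). The DESeq2 Wald test and the exact test each called 1, Cdkn2c (p18), against 1.54% and 1.89% of all genes. Cdkn2c stood at 79.7 and 80.2 CPM in CAF-1 OFF and 48.5 and 45.9 in control (0.76 ± 0.12, quasi-likelihood FDR 0.128).

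**Figure D5:**
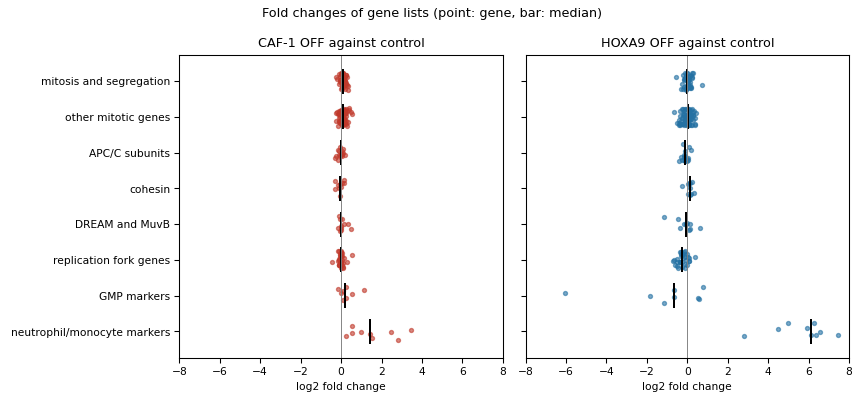
Log2 fold change (x axis) of each gene (points) in the 46 mitotic genes and 7 other lists (y axis), in CAF-1 OFF against control (left) and HOXA9 OFF against control (right); black bars are medians. The mitotic lists stay near 0 in both panels, 28 of the 33 replication fork genes lie left of 0 in HOXA9 OFF (median -0.28), and the neutrophil and monocyte markers lie far to the right there (median 6.13).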

How the data were processed

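Bulk RNA-seq of 6 libraries (3 groups of 2) was analysed, grouped by sample titles. The authors aligned reads with STAR to mm9 and counted them per gene symbol with HTSeq-count; the deposited values are raw counts, with no normalization. Annotation, strand setting and overlap mode were not given in the sources used here. The kit was a directional one. Reads with several alignments are dropped by HTSeq-count, so near-identical gene copies are undercounted.

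Counts were filtered by filterByExpr (12460 genes kept), scaled by TMM and fitted with the quasi-likelihood F test of edgeR 4.0.16 (R 4.3.3, limma 3.58.1), with 1 mean per group, all 6 libraries and no block. A call needed at least a 1.5-fold change and an FDR under 0.05 (Benjamini-Hochberg, over all genes tested), as in the study's methods. Errors of log2 fold changes are SE from the F statistic, and CPM used TMM-scaled library sizes. The model was tested on simulated data before use. All groups held libraries that differed by more than sampling noise (chi-square per degree of freedom of at least 21.4). Depth was 16773560 to 25170898 gene counts, and 3 counts corresponded to 0.118 to 0.182 CPM, which covers counting error only.

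The 46 genes and the other lists were chosen with earlier results of these data known. Values in every library were given for 29 of the 46: in each role the 2 with the highest mean CPM and the 2 with the largest absolute log2 fold change in HOXA9 OFF against control, and the 5 with the smallest p in CAF-1 OFF against control. From the other lists of cell cycle genes, up to 3 called genes in each direction in HOXA9 OFF against control were named. Cell type markers were named outside this rule. Cdkn2c and the genes of the direct comparison were chosen after their values were seen. Exon lengths and positions came from GENCODE vM1 on NCBIM37 (mm9), and promoters from RefSeq on GRCm38.p6; no amino acid sequences were used here. Alternatives were DESeq2 size factors, library size alone, no filter, a filter at a mean of 5 CPM, the DESeq2 1.42.0 Wald test, the edgeR exact test, a fit to the 4 libraries compared, a replicate block, other cutoffs and leaving out each library. A block with crossed numbers and a length trend offset were added after seeing the data. Values of some single marker genes are not reported here.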

Additional observations from a re-analysis of the deposited data

How the results depend on the processing

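In CAF-1 OFF against control, 0 of the 46 genes were called under every alternative run. In HOXA9 OFF against control the count was 0 and became 1 with library size alone (Mybl2, log2 fold change -0.62), no low-count filter, the DESeq2 Wald test, the edgeR exact test, the fit to the 4 libraries compared, a 1.5-fold change with FDR under 0.1, the length trend offset chosen after seeing the data (each Mki67), and FDR under 0.05 with no fold minimum (Mybl2). Leaving out 1 library gave 0 to 1, the 1 being Mybl2 without HOXA9 OFF library 1. In CAF-1 OFF against HOXA9 OFF the count was 1 (Mybl2) and became 2 with no low-count filter and with the crossed block (Mki67 and Mybl2) and 0 at a 2-fold change with FDR under 0.01; leaving out 1 library gave 1 to 2, the 2 without CAF-1 OFF library 2. The cause of these changes was not tested. Lone libraries in such fits are assumed to vary like the other groups.

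Of the estimates larger than their SE, 5 changed sign when 1 library was left out. Ube2c in CAF-1 OFF against HOXA9 OFF ran from -0.032 without CAF-1 OFF library 1 to 0.38 without CAF-1 OFF library 2. Without CAF-1 OFF library 2 and 1, Cenpe against control ran from -0.031 to 0.49, Top2a against control from -0.057 to 0.36 and Top2a against HOXA9 OFF from -0.050 to 0.37. Nusap1 in CAF-1 OFF against HOXA9 OFF ran from -0.29 without HOXA9 OFF library 2 to 0.0087 without HOXA9 OFF library 1. The median over the 46 went from -0.01 to -0.09 in HOXA9 OFF against control and from 0.09 to 0.17 in CAF-1 OFF against HOXA9 OFF with library size alone, and the latter to 0.18 without HOXA9 OFF library 1 and to 0.03 without HOXA9 OFF library 2. In CAF-1 OFF against control it ran from 0.06 without control library 2 to 0.17 without control library 1.

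The groups share replicate numbers. In the 3 comparisons, the deviations of same-numbered libraries correlated at -0.178, 0.456 and 0.0329 over all genes. Over the 46 they correlated at -0.763, 0.0528 and 0.354. These values differ in sign and do not settle whether the numbers mark pairing. The main fit took none. With the replicate block 0, 0 and 1 of the 46 were called, and 2, 2680 and 2684 of all genes. With CAF-1 OFF numbers crossed, 71 of all genes were called against control and 3030 against HOXA9 OFF. Over all genes, CAF-1 OFF against control gave 4 calls, 378 with no filter, 192 with DESeq2, 236 with the exact test, 9 in the 4-library fit, 30 at FDR under 0.1, 12 with the length offset and 0 at the strict cutoffs. The strict cutoffs gave 987 and 948 calls in the other comparisons, against 2740 and 2755.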

Other observations

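Of 8 progenitor markers, 5 fell in HOXA9 OFF against control in the edgeR quasi-likelihood test (Cd34, Ctsg, Flt3, Kit and Myb), 62.5% of the list against 22% of all genes called. The other 3, Mpo, Elane and Prtn3, had positive estimates that did not pass (0.53, 0.76 and 0.59; edgeR FDR 0.112, 0.131 and 0.061), and for 2 of the 8 both HOXA9 OFF libraries lay above both controls. Flt3, a growth factor receptor of early progenitors, went from 237 and 329 CPM in control to 5.02 and 3.46 in HOXA9 OFF, and Kit, the receptor of stem cell factor, from 710 and 542 to 299.7 and 262. Mpo, the myeloperoxidase of primary granules, stood at 6437 and 4109 CPM in control, 8546 and 6673 in HOXA9 OFF and 7928 and 7264 in CAF-1 OFF.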
